A study of Mus musculus with 2 samples.

Results

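Interferon-stimulated genes were followed in single-cell RNA sequencing of mouse bone marrow derived macrophage cultures. The 34 genes were chosen by symbol as known targets of interferon signalling, and each was found once among the 31053 genes listed in both deposited matrices. Marrow cells of the 129Sv strain had been grown in medium with 10% serum and 50 ng/ml M-CSF, under which macrophages differentiate from marrow. On day 7 one culture received 1 µg/ml of a truncated form of Tamm-Horsfall protein (THP, a kidney protein), described as non-polymerizing, and the other received the vehicle, 5% dextrose, both for 18 h. There was 1 library per group, so the treatment, the culture and the library cannot be told apart and no test between groups was possible.

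Kept cells numbered 12123 in the THP library, with a median of 16113 unique molecular identifiers (UMIs, which count captured RNA molecules), and 10978 in the vehicle library, with a median of 17223. Levels are given as CPM, the UMIs of a gene per 1e6 UMIs summed over the named cells of a library, with an exact Poisson 95% interval that covers counting error only. Log2 ratios compare CPM + 1 after THP with CPM + 1 after vehicle. The size rule asked for 10 CPM or more in either library together with a 2-fold or greater difference. The libraries shared 42 cell barcodes, 38 of them kept in both, and the Cxcl10 ratio without these was 1.92, as with them.

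Type I interferons bind the Ifnar1 and Ifnar2 receptor chains, and the kinases Jak1 and Tyk2 then activate transcription factors. A complex that includes Stat2 and Irf9 binds the interferon-stimulated response element (ISRE) in front of its target genes, while interferon gamma acts through GAS elements. Macrophages can make interferon beta after their nucleic acid or lipopolysaccharide sensors are engaged, and some targets, Cxcl10 among them, also respond to NF-kB.

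Promoter windows are shown for Cxcl10, Bst2, Isg15, Ifit2 and Rsad2, the 5 members with the largest ratios in either direction among those at 10 CPM or more in a library. Ifit1 is also shown, to set it beside Ifit2 of the same family. Each window holds 250 bases before and 50 bases after the RefSeq start of the gene on GRCm38.p6, read 5′ to 3′ on the gene's own strand. Capitals mark matches to the ISRE core TTTC-NN-TTTC, the GAS core TTC-NNN-GAA or the NF-kB consensus on either strand, and overlapping matches run together. The windows are chr5:92348840-92349139 (minus strand) for Cxcl10, chr19:34640639-34640938 (plus strand) for Ifit1, chr4:156200769-156201068 (minus strand) for Isg15 chr8:71537423-71537722 (minus strand) for Bst2, chr12:26456403-26456702 (minus strand) for Rsad2 and chr19:34550444-34550743 (plus strand) for Ifit2, which has 2 listed starts.
Cxcl10: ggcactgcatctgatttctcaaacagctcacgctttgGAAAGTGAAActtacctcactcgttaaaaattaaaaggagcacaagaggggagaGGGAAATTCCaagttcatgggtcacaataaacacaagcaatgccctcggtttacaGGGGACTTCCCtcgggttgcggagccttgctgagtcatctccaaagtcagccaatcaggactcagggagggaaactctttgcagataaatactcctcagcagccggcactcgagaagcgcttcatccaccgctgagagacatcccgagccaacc
Ifit1: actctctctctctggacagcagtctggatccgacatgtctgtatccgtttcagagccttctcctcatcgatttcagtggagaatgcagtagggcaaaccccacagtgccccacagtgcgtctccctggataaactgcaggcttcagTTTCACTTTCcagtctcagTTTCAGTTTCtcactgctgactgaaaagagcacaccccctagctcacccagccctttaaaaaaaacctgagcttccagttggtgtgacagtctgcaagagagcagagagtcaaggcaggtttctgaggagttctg
Isg15: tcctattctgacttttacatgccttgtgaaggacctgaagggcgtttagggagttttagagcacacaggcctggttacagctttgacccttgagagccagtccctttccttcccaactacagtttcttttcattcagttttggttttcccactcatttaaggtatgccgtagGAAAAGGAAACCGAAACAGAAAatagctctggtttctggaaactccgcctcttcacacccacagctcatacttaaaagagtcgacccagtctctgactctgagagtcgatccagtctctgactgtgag
Bst2: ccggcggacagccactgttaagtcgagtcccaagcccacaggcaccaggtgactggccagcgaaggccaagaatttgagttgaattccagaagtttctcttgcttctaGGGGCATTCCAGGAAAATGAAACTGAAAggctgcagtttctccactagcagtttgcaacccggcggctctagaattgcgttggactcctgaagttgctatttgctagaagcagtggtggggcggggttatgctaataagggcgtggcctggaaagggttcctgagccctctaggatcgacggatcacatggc
Rsad2: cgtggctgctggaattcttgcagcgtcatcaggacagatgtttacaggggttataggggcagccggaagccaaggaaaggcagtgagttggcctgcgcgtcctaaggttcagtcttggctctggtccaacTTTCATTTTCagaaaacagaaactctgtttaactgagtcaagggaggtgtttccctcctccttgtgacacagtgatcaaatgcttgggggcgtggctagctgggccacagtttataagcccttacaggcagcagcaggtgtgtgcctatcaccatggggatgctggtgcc
Ifit2: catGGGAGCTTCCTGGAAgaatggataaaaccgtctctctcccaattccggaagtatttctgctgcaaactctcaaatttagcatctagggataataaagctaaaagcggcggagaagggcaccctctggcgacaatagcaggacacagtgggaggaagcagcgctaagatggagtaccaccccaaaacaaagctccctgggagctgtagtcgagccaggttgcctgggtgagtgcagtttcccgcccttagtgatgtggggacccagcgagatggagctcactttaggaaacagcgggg

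The Cxcl10 window holds 1 ISRE core and 3 NF-kB matches, of which 2 overlap. Ifit1 has 2 ISRE cores and Isg15 has 3 that overlap one another, and neither window has an NF-kB match. Bst2 has 2 overlapping ISRE cores joined to 1 GAS core and 1 NF-kB match. Rsad2 has 1 ISRE core. Ifit2 has 0 ISRE cores in either of its windows, and the one shown has 1 GAS core and 1 NF-kB match that overlap. RefSeq windows were matched for 27 of the 34 members. An ISRE core lay in the windows of 15 of these 27 (55.6%), against 3.99% of the 27025 genes with a window. GAS cores were found for 5 members (18.5%) against 9.55% of genes, and NF-kB matches for 8 members (29.6%) against 9.55%. A match describes the letters only and was not taken as a bound site.

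Over all kept cells 1 member, the chemokine gene Cxcl10, passed the size rule as higher in the THP library and 0 passed as lower, among 26 members at 10 CPM or more in either library. Of the 8012 genes at that level, 0.911% passed as higher and 2.97% as lower. The median log2 ratio of the 26 members was 0.05, with 14 above 0 and 12 below, and the median of the 8012 genes was -0.18. TMM scaling, which estimates 1 factor per library from the bulk of genes, moved the median of all genes to 0.11 and that of the members to 0.32, with 20 members above 0 and 7 below. Under TMM scaling Isg15 and Bst2 also passed as higher, making 3 members, against 1.73% of all genes as higher and 0.867% as lower. The members therefore did not move as a block on either scale. The plot of their ratios shows the values by library totals only.

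**Figure D1:**
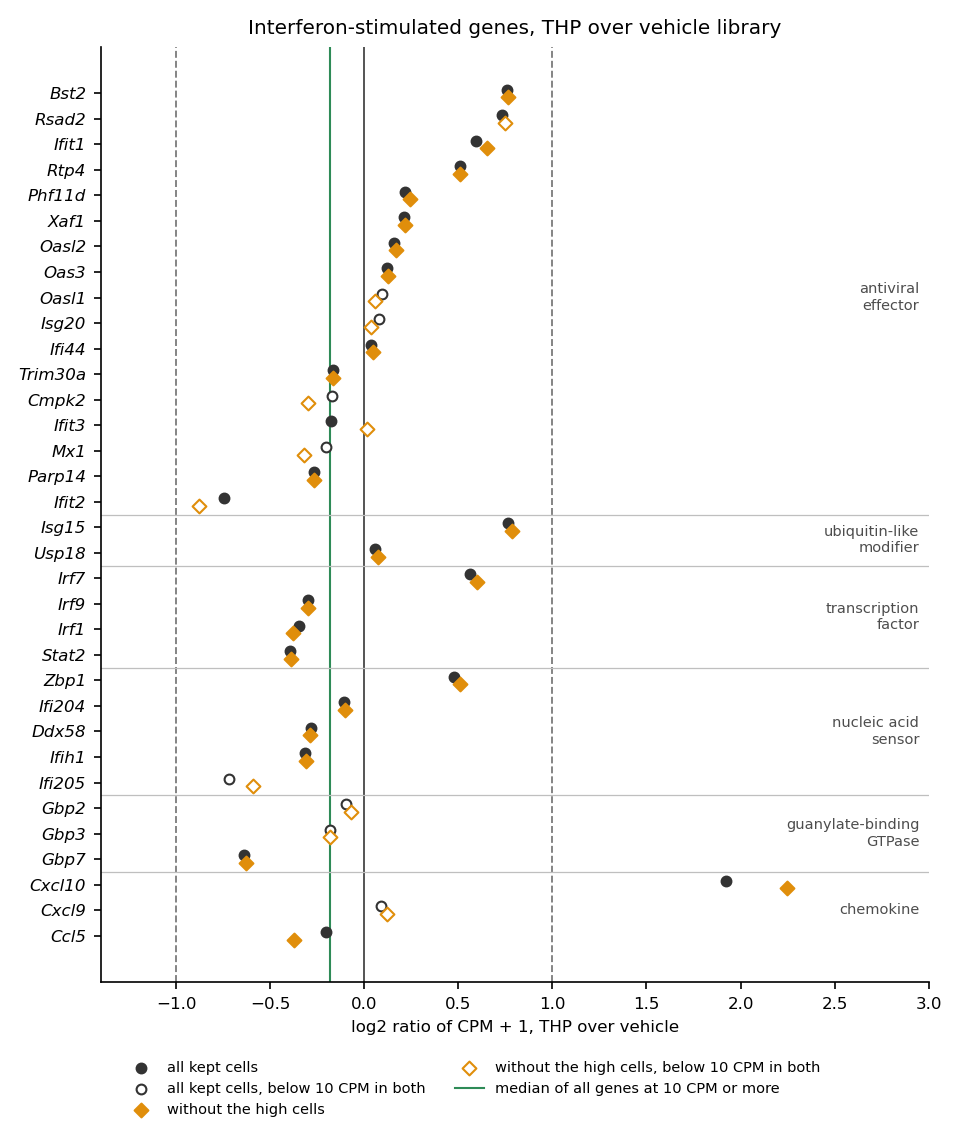
Log2 ratio of CPM + 1, THP over vehicle, for the 34 members grouped by role, over all kept cells (circles) and without the cells of high core score (diamonds). Open symbols lie below 10 CPM in both libraries, dashed lines mark 2-fold, the green line marks the median of all genes at -0.18, and Cxcl10 alone lies past 2-fold.

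Among the 3 chemokine genes, Cxcl10 (chr5:92346638-92348889, minus strand), whose product attracts T and NK cells through Cxcr3, measured 75.2 CPM (74.1 to 76.4) with THP and 19.1 CPM (18.5 to 19.7) with vehicle. Its log2 ratio was 1.92, and it ran from 1.74 to 2.22 over the alternative scalings, weightings, filters and pseudocounts. Cxcl9, a neighbour on chromosome 5 with the same receptor and a strong dependence on interferon gamma, had 0.632 CPM (0.532 to 0.744) and 0.535 CPM (0.440 to 0.644), so its intervals overlapped. Ccl5, a chemokine for T cells, had 12.6 CPM (12.09 to 13.02) against 14.6 CPM (14.11 to 15.15). The chemokines thus differed from one another, with the Cxcr3 ligand Cxcl10 far higher and its neighbour Cxcl9 near 0 in both libraries.

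Of the 17 antiviral effector genes, 13 reached 10 CPM and 0 passed the size rule, with 9 ratios above 0, 4 below and a median of 0.16. Bst2, which encodes tetherin, a membrane protein that holds budding virus on the cell, had 307 CPM (305 to 310) and 182 CPM (180 to 183). Rsad2, which encodes viperin, an enzyme that makes a chain-terminating nucleotide, had 20.2 CPM (19.6 to 20.8) and 11.8 CPM (11.3 to 12.3). Ifit1, whose product binds viral RNA ends that lack the host's cap marks, had 19.7 CPM (19.1 to 20.3) and 12.7 CPM (12.2 to 13.2). These 3 genes were higher in the THP library by 0.76, 0.73 and 0.60 on the log2 scale, with intervals that did not overlap.

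Ifit2, another RNA-binding member of the Ifit family near Ifit1 on chromosome 19, went the other way. Its level was 6.31 CPM (5.98 to 6.64) with THP and 11.2 CPM (10.8 to 11.7) with vehicle, which is -0.74 on the log2 scale. Ifit3, the third family member, was close in both, at 11.2 CPM (10.8 to 11.7) and 12.8 CPM (12.3 to 13.3), and UMIs of Ifit3 and its near-identical copy Ifit3b could have been exchanged in counting. These neighbouring genes of 1 family thus had ratios of 0.60, -0.74 and -0.17. With TMM scaling the Ifit3 ratio turned to 0.09, while those of Ifit1 and Ifit2 kept their signs at 0.86 and -0.49.

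Rtp4, whose product restrains RNA viruses, had 69.4 CPM (68.3 to 70.5) and 48.5 CPM (47.6 to 49.5), a log2 ratio of 0.51. The oligoadenylate synthetase Oas3 and its relatives Oasl1 and Oasl2 had ratios of 0.12, 0.09 and 0.16. Ifi44, Xaf1, Phf11d and Isg20, which encodes an RNA exonuclease, lay between 0.03 and 0.22. Mx1, a dynamin-like GTPase that blocks influenza virus, Cmpk2, a mitochondrial nucleotide kinase next to Rsad2 on chromosome 12, Parp14 and Trim30a lay between -0.26 and -0.17, and all 4 turned positive with TMM scaling. The signs of these 4 therefore depended on the scaling. TMM factors raised the ratio of every member, so the small positive ratios above could not turn negative with them. With the same mix of gates in both libraries, described further on, Oas3, Oasl1, Oasl2, Ifi44 and Phf11d turned negative. Oasl1 and Isg20 did so with the correction for transcript length below, while Xaf1 stayed positive in every alternative.

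In the ubiquitin-like modifier system, Isg15, the small protein that is joined to other proteins after interferon, had 89.2 CPM (88.0 to 90.5) and 52.2 CPM (51.3 to 53.2), a log2 ratio of 0.76. Usp18, which removes Isg15 from proteins and dampens the receptor, had 13.7 CPM (13.3 to 14.2) and 13.2 CPM (12.7 to 13.7), with intervals that overlapped. The modifier was thus higher in the THP library while the gene of its removing enzyme was at a like level.

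Among the 4 transcription factors, Irf7, the factor that amplifies interferon alpha production, was the 1 with a ratio above 0. It measured 60.7 CPM (59.7 to 61.8) with THP and 40.8 CPM (40.0 to 41.7) with vehicle, 0.56 on the log2 scale. Stat2, Irf9 and Irf1 were lower. Stat2 had 18.0 CPM (17.4 to 18.6) and 24.0 CPM (23.3 to 24.7), Irf9 30.8 CPM (30.1 to 31.6) and 38.2 CPM (37.3 to 39.0), and Irf1 17.4 CPM (16.8 to 17.9) and 22.4 CPM (21.8 to 23.0). Stat2 and Irf9 are subunits of the complex that binds the ISRE, and their ratios of -0.40 and -0.30 shrank to -0.12 and -0.02 with TMM scaling.

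The nucleic acid sensors were split in the same manner. Zbp1, a sensor of Z-form nucleic acid, was higher at 20.9 CPM (20.3 to 21.5) against 14.7 CPM (14.2 to 15.3). The RNA helicase sensors Ifih1 (MDA5) and Ddx58 (RIG-I) were lower, with ratios of -0.31 and -0.28, and the DNA sensors Ifi204 and Ifi205 had ratios of -0.11 and -0.72. Ifi205 lay under 10 CPM, at 1.86 CPM (1.69 to 2.05) and 3.72 CPM (3.46 to 3.99), and both belong to a family of similar genes whose UMIs may be hard to assign.

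Of the 3 guanylate-binding GTPases, which attack vacuoles of intracellular microbes, Gbp7 alone reached 10 CPM. Its level was 13.7 CPM (13.2 to 14.2) with THP and 21.9 CPM (21.3 to 22.6) with vehicle, or -0.64 on the log2 scale. Gbp2 and Gbp3 had ratios of -0.10 and -0.18 that turned positive with TMM scaling. At a limit of 1.5-fold, Ifit1, Isg15, Rsad2, Bst2 and Cxcl10 passed as higher and Ifit2 and Gbp7 as lower, against 2.33% and 17.3% of all genes.

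Ratios across all genes ran lower with longer transcripts, so each member was also set against genes of like length on the GENCODE M21 annotation. The median of like-length genes was taken off and the median of all genes, near -0.18, was added back. On this scale like-length genes therefore lie near -0.18 and not at 0. Isg15, with a longest transcript of 756 bases, and Bst2, with 792 bases, had corrected log2 ratios of 0.40 and 0.39, about as far above their like-length genes as Rtp4 at 0.30. Rsad2, with 4189 bases, had 0.80, Ifit1 0.52, Irf7 0.55 and Zbp1 0.48. Gbp7, with 5614 bases, had -0.36, Ifit2 -0.68 and Irf1 -0.51, all below like-length genes. Ifih1, with 5470 bases, was at -0.04, which is above them. Cxcl10 stayed at 1.78.

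The other genes of the pathway were taken from a list of ligands, receptors, kinases, sensors, regulators and further targets, of which 107 of 110 symbols were found. Of 70 at 10 CPM or more, 3 passed the size rule as higher and 0 as lower, beside the same 0.911% and 2.97% of all genes, and their median ratio was -0.08. Those 3 were Ikbke, which encodes the kinase IKKε, at 114 CPM and 50.5 CPM, Ccl12, a Ccr2 ligand, at 66.9 CPM and 15.2 CPM, and Socs3, a feedback inhibitor of cytokine receptors, at 12.6 CPM and 2.27 CPM. Leaving out the cells of high core score changed these 3 by little, to 114 and 50.4, 62.9 and 14.5, and 12.5 and 2.26 CPM.

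The receptor genes did not pass the rule. Ifnar1 had 77.4 CPM and 107 CPM and Ifngr1 102 CPM and 165 CPM, both lower in the THP library, while Ifngr2 had 135 CPM and 131 CPM. Jak1 was at 114 CPM and 153 CPM, and the transcription factors Irf8 and Irf2 at 104 and 114 CPM and at 87.6 and 124 CPM. Ifi207 and Ifi203, relatives of the DNA sensors, had 71.8 and 86.3 CPM and 60.9 and 74.8 CPM. Among the regulators, Ptpn6, a phosphatase that restrains cytokine receptors, had 265 CPM and 232 CPM, Irf2bp2 146 CPM and 199 CPM, and Samhd1, which depletes nucleotides, 144 CPM and 180 CPM. The most abundant further targets were Ifitm3, which hinders virus entry, at 2736 CPM and 1861 CPM, Ifi27l2a at 1451 CPM and 875 CPM, and Ly6e at 708 CPM and 671 CPM. Ifi27l2a had a log2 ratio of 0.73, and of 1.01 with TMM scaling. Interferon genes themselves were barely detected. Ifnb1 had 5 UMIs with THP and 3 with vehicle, Ifng had 3 and 6, Ifnk had 3 and 4, and each of the other 8 listed ligands had 0, where 3 UMIs would correspond to 0.0133 and 0.0144 CPM. Whether interferon was made earlier in the 18 h or by cells not captured was not measured.

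The culture was not a pure macrophage population by its markers, so cells were gated on summed marker levels before comparing the libraries again. Each gate is a range of a score and not a proven cell type, and the cuts were set on the pooled marker distributions without using any member. Past the macrophage list alone (which holds Adgre1, C1qa, C1qb, C1qc, Mrc1, Csf1r, Mertk and Cd68) were 5221 cells with THP, or 43.1% (42.2 to 44.0) of those kept, and 3356 with vehicle, or 30.6% (29.7 to 31.4), these being exact binomial 95% intervals. The macrophage score had no gap at its cut, and 11.5% of all kept cells lay within 1.25-fold of it. A further 6 gates had at least 200 cells in each library, namely antigen-presenting (MHC class II genes), monocyte, progenitor, granulocyte precursor, neutrophil with the monocyte list, and neutrophil only. The share of each of these 6 was lower in the THP library, and cells past no list or past lists that exclude each other, 18.85% and 16.02%, stayed ungated.

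Levels of the members followed the gates. In the THP library 21 of 34 members had their highest level of the 7 gates in antigen-presenting cells, 8 in macrophage-gated cells, 4 in neutrophil-only cells and 1 in progenitors. The vehicle library gave 22, 5, 7 and 0. Isg15, for example, ran in THP cells from 8.49 CPM in progenitors to 188 CPM in neutrophil-only cells and in vehicle cells from 6.63 to 143 CPM in the same gates. Ccl5 had its highest level by far in the antigen-presenting gate, with 133 CPM and 141 CPM there and at most 6.5 CPM in the other 6. These are levels within a gate. The shares of its UMIs that came from each gate, or from cells outside the 7, were not compared.

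Since the gates differ in level and in share, the median of the members was recomputed with the same mix of gates in both libraries, and it was -0.08 in place of 0.05. The median of all genes with that mix is not given, so this value cannot be set against genes in general. In macrophage-gated cells alone, 29 members reached 10 CPM, their median was -0.21 against -0.16 for all genes, and 10 were above 0 and 19 below. One member, Cxcl10, was past the rule there as higher, beside 0.942% of genes, and 0 as lower, beside 2.09%. Without the high cells described further on, the gate's 23 members at 10 CPM or more had a median of -0.04 against -0.16 for all genes. The 29 and the 23 are different sets of members, so the 2 medians do not show what the high cells changed. With all cells of a gate, the members' median was above that of all genes in antigen-presenting cells, at -0.21 over 33 members against -0.25. Without the high cells it was below there, at -0.36 over 28 members against -0.25 for all genes. In neutrophils with the monocyte list the members' median was above with all cells, at 0.08 against -0.21. With all cells it was below in the macrophage gate, as given above, and in the other 4 gates. These 4 had -0.21 against -0.18 in monocyte-gated cells, -0.24 against -0.16 in progenitors, -0.29 against -0.20 in granulocyte precursors and -0.44 against -0.31 in neutrophil-only cells. In the macrophage gate the macrophage list summed to 2721 CPM and 2865 CPM and the neutrophil list to 619 CPM and 821 CPM. The monocyte list summed there to 240 CPM and 340 CPM, and the antigen-presenting list to 384 CPM and 485 CPM. The part of cells or RNA of other types in the gate's values was not tested.

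**Figure D2:**
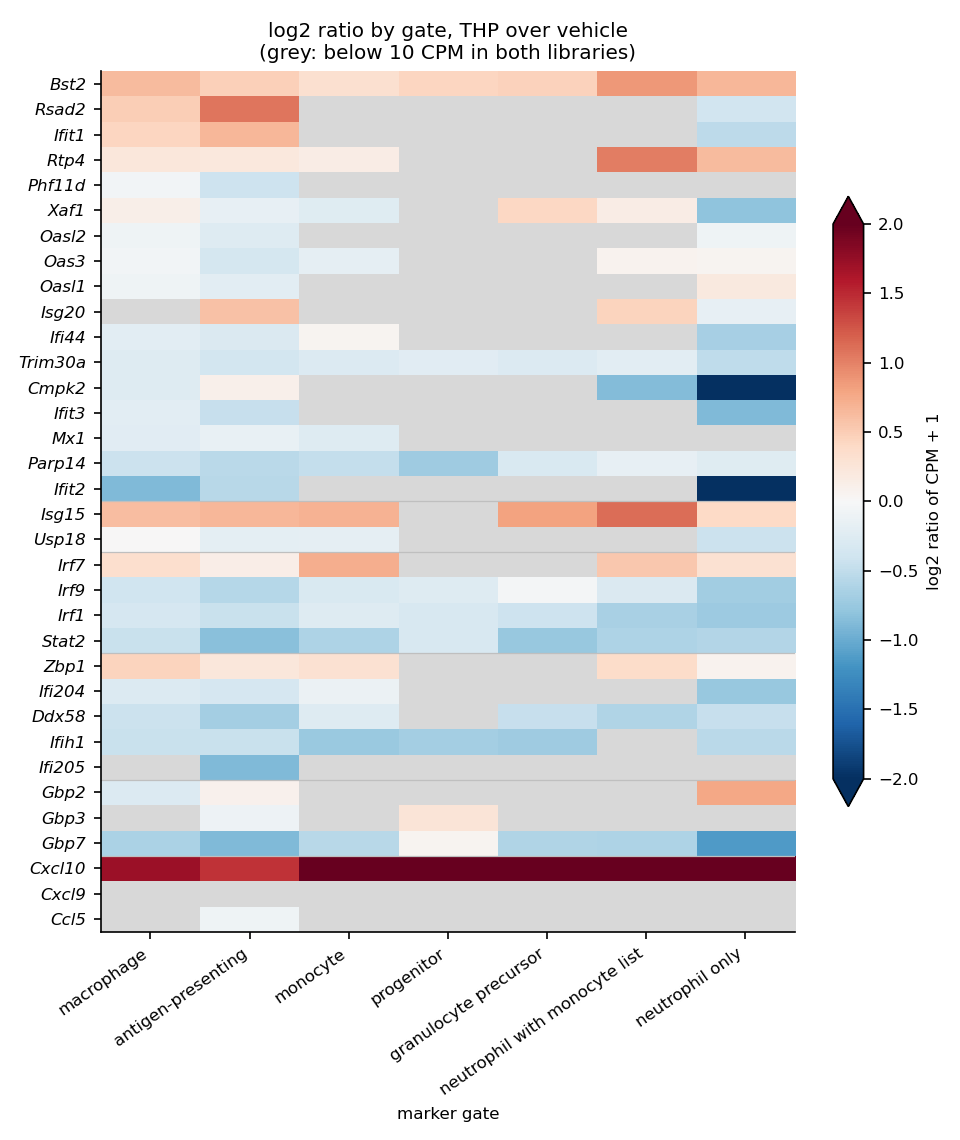
Log2 ratio of CPM + 1, THP over vehicle, for each member (rows, by role) in each of 7 marker gates (columns), with grey where neither library reached 10 CPM; the colour scale is clipped at 2 in either direction. Cxcl10 and Bst2 are above 0 in all 7 gates, and Stat2 and Irf1 below 0 in all 7.

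Cxcl10 passed the rule as higher in each of the 7 gates. In macrophage-gated cells it had 83.5 CPM and 24.8 CPM, and in antigen-presenting cells 124 CPM (116 to 132) and 45.1 CPM (41.4 to 49.1), which gave the smallest ratio at 1.44. The largest was in monocyte-gated cells, at 3.59, with 48.7 CPM and 3.13 CPM. Progenitors had 28.9 CPM and 2.55 CPM, granulocyte precursors 23.0 CPM and 3.78 CPM, neutrophils with the monocyte list 22.9 CPM and 2.92 CPM, and neutrophil-only cells 62.8 CPM and 5.49 CPM. Without the 5% of cells with the most UMIs in each library, Cxcl10 no longer passed in antigen-presenting cells, at 86.5 CPM (79.9 to 93.4) and 45.4 CPM (41.5 to 49.5), a log2 ratio of 0.92, where 1.23% of genes passed as higher and 6.4% as lower. In the other 6 gates it still passed, with ratios from 1.84 to 3.72. Vehicle cells outside the macrophage and antigen-presenting gates thus held little Cxcl10, and THP cells held it in every gate. It was the 1 member past the rule as higher in the monocyte, progenitor and granulocyte precursor gates, where 0.874%, 0.701% and 0.767% of genes passed as higher, and 0 members passed as lower beside 2.97%, 1.97% and 3.42%.

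Free RNA in droplets was not removed, and its part in these values was not tested. Summed macrophage markers, which such RNA would also carry, had 245 CPM and 196 CPM in progenitors, 9.0% and 6.8% of the level in macrophage-gated cells of the same library. Cxcl10 in progenitors stood at 34.7% and 10.3% of its level in macrophage-gated cells. For every 100 UMIs of the macrophage list there were 3.07 Cxcl10 UMIs in macrophage-gated THP cells and 11.8 in THP progenitors, against 0.865 and 1.30 in vehicle cells. In the barcodes that failed the cell filter Cxcl10 had 72.9 CPM and 2.10 CPM.

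The share of cells with a Cxcl10 UMI was compared after thinning each cell to 5000 UMIs and leaving out the 1958 THP and 1966 vehicle cells below that depth. It came to 9.55% (8.99 to 10.1) with THP and 2.03% (1.75 to 2.34) with vehicle, or 19.3% and 4.62% before thinning. In the macrophage gate the thinned shares were 10.5% (9.71 to 11.4) and 2.47% (1.97 to 3.06), and in progenitors 6.88% (4.81 to 9.49) and 0.743% (0.242 to 1.73). Before thinning the progenitor shares were 22.2% and 2.36%, at median depths of 21047 and 25116 UMIs, and the macrophage shares 25.0% and 7.03%, at 21078 and 23603 UMIs. Both gates thus had more cells with the transcript in the THP library, with intervals that did not overlap.

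Summed over the 7 gates, 10 of 149 ratios of a member in a gate passed as higher and 3 as lower, beside 1.18% and 4.85% of such ratios of all genes. Cxcl10 alone, counted once in each gate, made up 7 of the 10. Besides Cxcl10, a few members passed the rule in 1 gate. In antigen-presenting cells Rsad2 was higher, at 34.2 CPM (30.2 to 38.5) and 15.7 CPM (13.5 to 18.2), where 1.28% of genes passed as higher and 6.24% as lower. Without the 5% of cells with the most UMIs Rsad2 had 19.1 CPM and 16.9 CPM there and did not pass. Without the high cells described next, Cxcl10 alone passed in that gate, beside 1.28% and 6.31% of genes. In neutrophils with the monocyte list Isg15 was higher at 48.6 CPM and 21.9 CPM and Rtp4 at 17.2 CPM and 7.97 CPM, where 1.36% of genes passed as higher and 4.3% as lower. Without the high cells Rtp4 was still past the rule there, Isg15 was not, and Cmpk2 was past it as lower, beside 1.32% and 4.25% of genes. Neutrophil-only cells, at median depths of 2085 and 1832 UMIs, had Ifit2 lower with 5 UMIs against 31, Cmpk2 with 9 against 47 and Gbp7 with 20 against 51, where 13.5% of all genes passed as lower and 2.46% as higher. Without the high cells the calls there changed: Gbp7 and Ifit3 were lower, with 16 against 41 and 8 against 20 UMIs, and Gbp2 was higher, with 33 against 16, beside 13.7% and 2.36% of genes, while Ifit2 and Cmpk2 were under 10 CPM in both libraries.

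In every gate, 8 members reached 10 CPM. Bst2 and Cxcl10 were above 0 in all 7, also with TMM or RLE factors within each gate. Stat2 and Irf1 were below 0 in all 7 under the same 3 scalings. Irf9, Parp14 and Trim30a were below 0 in all 7 by library totals, but Irf9 and Trim30a in 6 and Parp14 in 5 with TMM factors, and Gbp7 was below 0 in 6. Isg15 was above 0 in each of the 6 gates where it reached 10 CPM, and Irf7, Zbp1 and Rtp4 in each of 5. Cells of all gates came from the same 2 libraries, so agreement between gates is no replication.

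**Figure D3:**
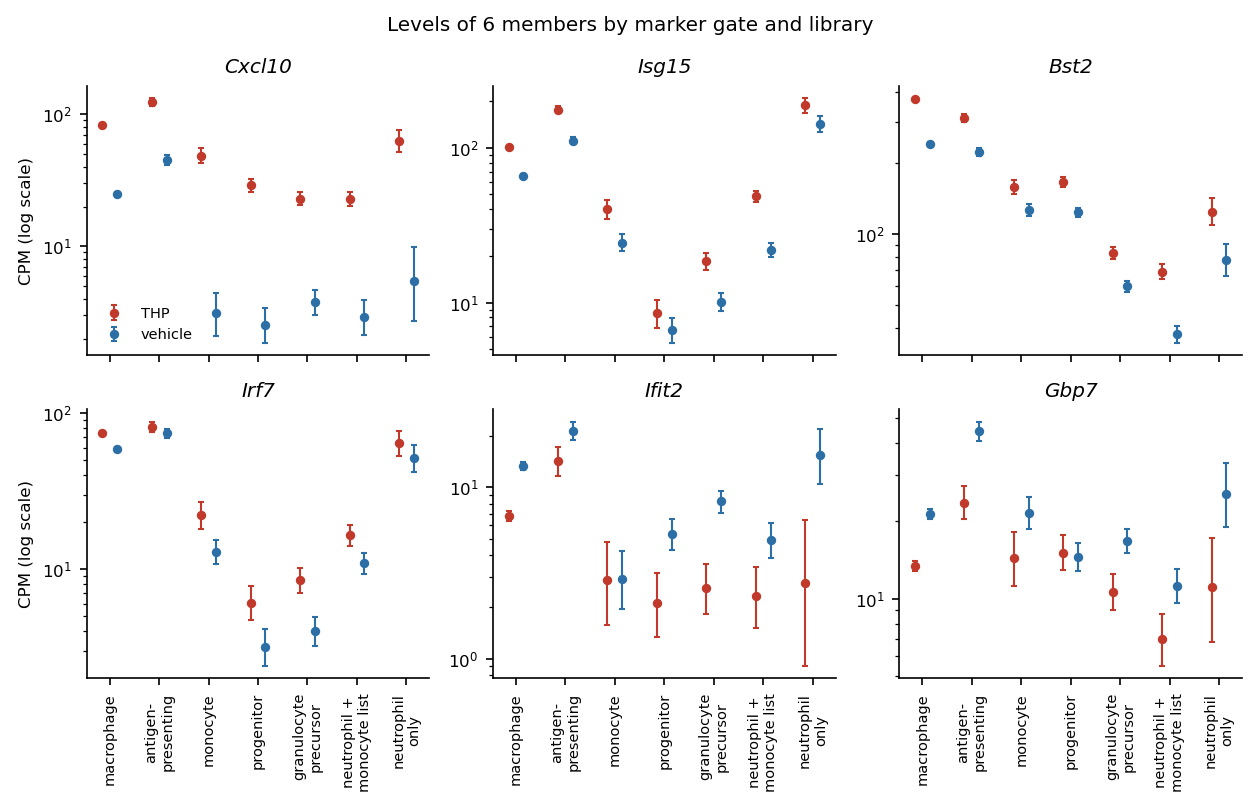
CPM on a log axis of 6 members in 7 marker gates, THP in red and vehicle in blue, with exact Poisson 95% intervals that cover counting error only. Cxcl10, Isg15 and Bst2 are higher in THP cells of each gate, while Ifit2 and Gbp7 are lower in macrophage-gated and antigen-presenting THP cells.

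A few cells held much of the members' RNA in both libraries. A core score summed 9 members (Ifit1, Ifit2, Ifit3, Isg15, Rsad2, Cmpk2, Oasl1, Irf7 and Usp18) per 10000 UMIs of a cell, and cells at 20 or more are called high. The score had a median of 0.784 in THP cells and 0.401 in vehicle cells and a maximum of 340 and 354. Its distribution had no gap at 20, and 0.809% of kept cells lay within 1.25-fold of the limit. The high cells are thus the upper end of a range of the score, and whether they form a separate type was not tested.

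High cells numbered 208 among the 12123 kept with THP, or 1.72% (1.49 to 1.96), and 149 among the 10978 kept with vehicle, or 1.36% (1.15 to 1.59), with overlapping intervals. After thinning to 5000 UMIs, with the score taken again on the thinned counts, the shares were 1.33% (1.11 to 1.57) and 1.05%. Macrophage-gated cells held 78 and 44 of them, 1.49% (1.18 to 1.86) and 1.31% (0.954 to 1.76) of the gate. Antigen-presenting cells had 20 in each library, 3.49% (2.14 to 5.34) and 3.04% (1.87 to 4.66). None was seen among 501 and 679 progenitors, where 3 cells would be 0.599% and 0.442% and the exact 95% intervals reach 0.734% and 0.542%. Neutrophil-only cells had 38 in each library, 6.54% and 5.27%, but at their low depth a few UMIs reach the limit, and of the 35 and 33 such cells deep enough to be thinned 0 were high.

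**Figure D4:**
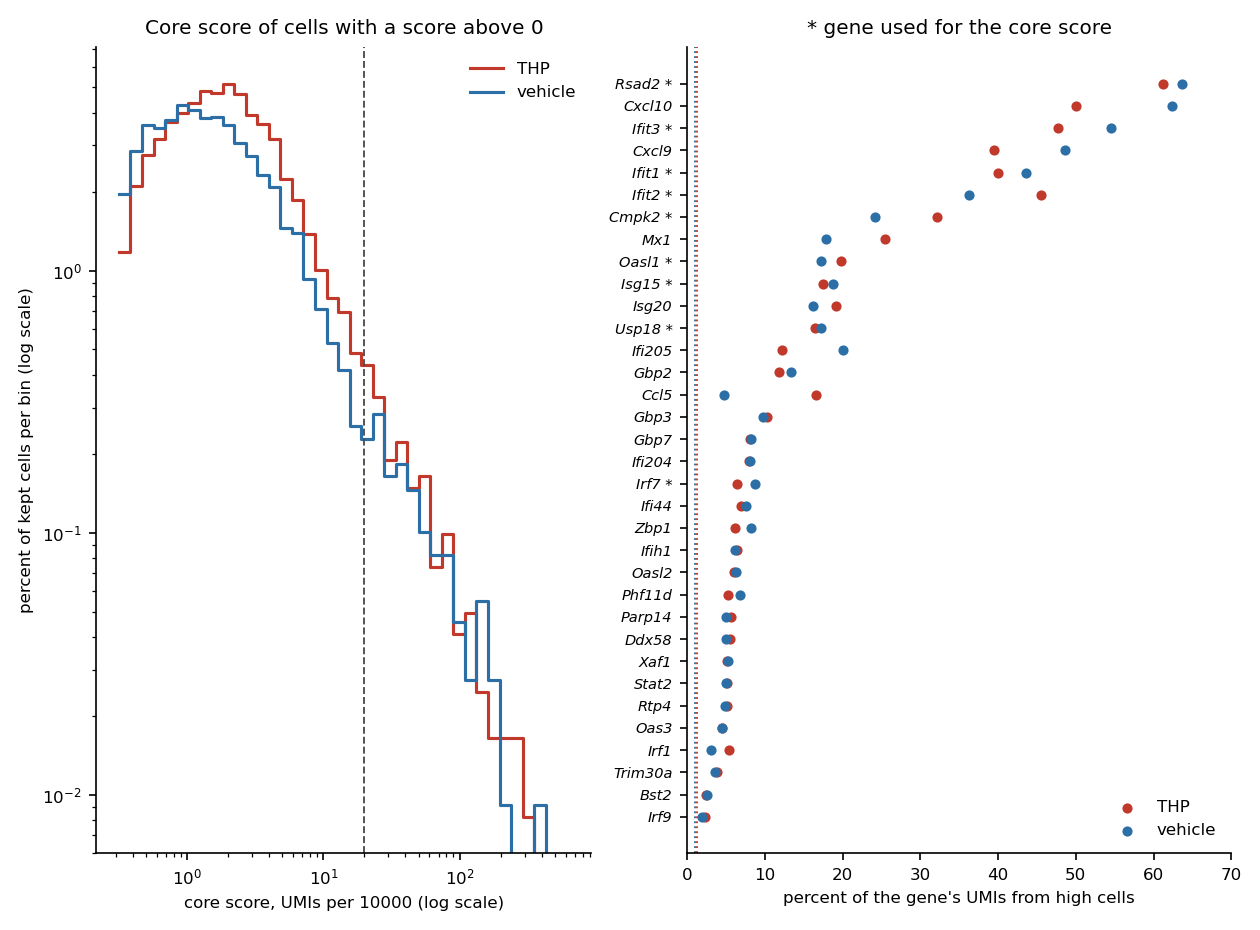
Left, the core score per cell on log axes as a percentage of kept cells per bin, with the limit of 20 dashed; right, the percentage of each member's UMIs that came from high cells, with dotted lines at the share of all UMIs in those cells (1.28% and 0.967%). Both score distributions fall without a gap through the limit, and Rsad2 and Cxcl10 lie at the top of the right panel.

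Of all UMIs, high cells held 1.28% with THP and 0.967% with vehicle. Of the genes that define them, Rsad2 had 61.2% and 63.6% of its UMIs there and Ifit3 47.7% and 54.5%. Of the 25 members that the score did not use, Cxcl10 had 50.1% and 62.4%, Cxcl9 39.4% and 48.6%, and Mx1 25.5% and 17.9%. At the other end Bst2 had 2.41% and 2.53%, and Irf9 2.31% and 1.92%. The members thus ranged from genes that were largely confined to few cells to genes spread over nearly all.

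Within the macrophage gate, high cells were set against the other cells of the same library for the 25 unused members. Members in and out of the score are targets of 1 pathway, so the values describe the high cells and test nothing. The ratio of high to other cells had a median of 4.30 with THP and 5.62 with vehicle, and 23 and 24 of the 25 members were at least 2-fold higher, against 2.7% and 3.21% of 8249 genes. Cxcl10 had 3080 CPM against 42.2 CPM in THP cells, a ratio of 73.0, and 1111 CPM against 11.4 CPM in vehicle cells, a ratio of 97.5. Ccl5 had ratios of 27.5 and 48.1, Mx1 23.0 and 24.6, and Isg20 19.0 and 23.3. Bst2 and Irf9 were the least changed, with 1.65 and 2.15 for Bst2 and 1.53 and 1.40 for Irf9.

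**Figure D5:**
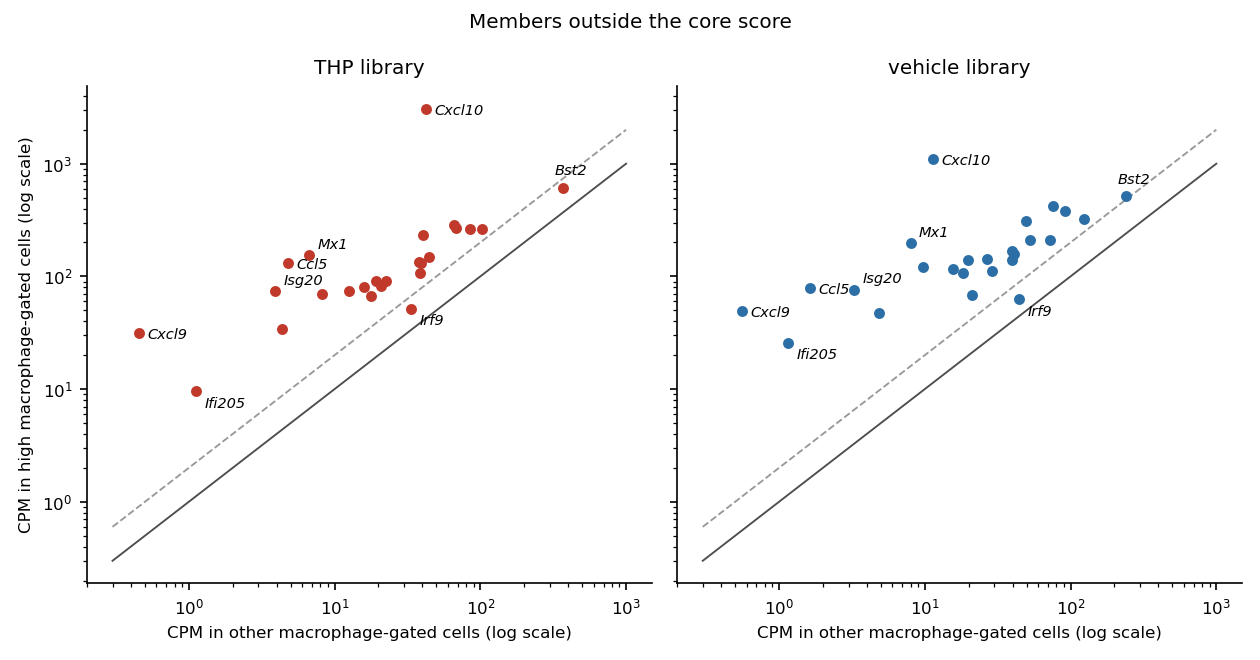
CPM of the 25 members outside the core score in high macrophage-gated cells (vertical axis) against other macrophage-gated cells (horizontal axis), both on log scales, for the THP library (left) and the vehicle library (right). The solid line marks equality and the dashed line 2-fold; Cxcl10 lies far above the line in both libraries, at 3080 and 1111 CPM in high cells.

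Individual high cells carried many of these genes at once. After thinning, high cells were called again on the thinned counts. A high macrophage-gated cell then had a median of 11 of the 25 unused members with at least 1 UMI if treated with THP and 12 if given vehicle. Other macrophage-gated cells had 3 and 4. Outside all lists, the 10 genes that led in high macrophage-gated cells of both libraries were Ddx60, Phf11b, Ifi44l, Ifi202b, Trafd1, Ccl4, Il15, Sp140, Zufsp and Nt5c3. Ddx60, a helicase related to the RNA sensors, had ratios of high to other cells of 6.67 and 7.03, and Il15, a cytokine for NK and memory T cells, had 4.55 and 3.40. Ifnb1 was seen in 1 high cell of each library.

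The high cells themselves were then compared between the libraries. Over all high cells, all 34 members reached 10 CPM, 2 passed as higher in the THP library and 2 as lower, where 1.67% and 7.37% of genes passed, and the median ratio was -0.36 against -0.19 for all genes. Cxcl10 had 2934 CPM and 1232 CPM and Ccl5 162 CPM and 72.2 CPM. Ifi205 had 17.7 CPM and 77.2 CPM and Gbp7 86.6 CPM and 185 CPM. Of the genes that define the high cells none passed: Ifit1 was at 615 CPM and 573 CPM and Isg15 at 1216 CPM and 1012 CPM, while Ifit2 had 224 CPM and 421 CPM and Ifit3 417 CPM and 722 CPM. The gates that make up the high cells were not in the same proportion in the 2 libraries. Within high macrophage-gated cells Cxcl10 passed as higher and Ifi205, with 17 and 28 UMIs, as lower, beside 2.22% and 8.06% of genes.

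Without the high cells the members' counts were the same, 1 higher and 0 lower, now of 23 at 10 CPM or more, where 0.912% and 2.92% of genes passed. Their median ratio was 0.07. Cxcl10 was then at 38.1 CPM and 7.24 CPM, or 2.24 on the log2 scale, so the difference was as large outside the high cells as with them. Isg15 had 74.6 CPM and 42.9 CPM without them, Bst2 304 CPM and 179 CPM and Irf7 57.6 CPM and 37.6 CPM, with ratios of 0.79, 0.76 and 0.60. Ifit1 had 12.0 CPM and 7.25 CPM and Ifit2 3.48 CPM and 7.24 CPM, so the opposite signs within the Ifit family were present in the remaining cells too.

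Cxcl10 was thus looked at cell by cell. In the THP library 75 cells had 50 or more Cxcl10 UMIs and 55 of these were high cells, and these 75 cells, 0.619% of those kept, carried 53.2% of its UMIs. In the vehicle library 22 cells had 50 or more, 19 of them high, and they carried 63.9%. Cells with 1 to 4 UMIs numbered 1856 and 433. The highest single cells were alike, at 418 and 400 UMIs. More cells at each level, rather than a higher top, separated the libraries.

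Among thinned macrophage-gated cells, 80.5% of the 82 high THP cells and 48.98% of the 49 high vehicle cells had a Cxcl10 UMI. These were called high on the thinned counts and are not the same set as the 78 and 44 before thinning. Read the other way, of the thinned macrophage-gated cells with Cxcl10, 12.4% (9.69 to 15.5) of 534 THP cells were high against 29.6% (19.99 to 40.81) of 81 vehicle cells. Cells with Cxcl10 and no UMI of any of the 9 core genes were 28.1% (24.3 to 32.1) and 19.8% (11.7 to 30.1) of them, compared with 45.4% and 52.3% of all thinned macrophage-gated cells. Cells with Cxcl10 thus held core genes more often than cells in general in both libraries, and a smaller share of them in the THP library reached the high range.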

How the data were processed

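Per the submitters' processing notes the reads were handled with bcl2fastq, Cell Ranger and STAR on build mm10, and per the file headers the matrices came from software version 3.1.0 in format version 2. The deposited values are counts of UMIs per gene and barcode, not normalised, 227129670 over 13193 barcodes for THP and 209092047 over 11584 for vehicle. In the sources used here the use of strand and any removal of doublets or free RNA are not given. Similar genes can share UMIs.

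Cells were kept at 500 or more genes, 1000 or more UMIs and at most 10% mitochondrial UMIs, which left 91.9% and 94.8% of barcodes. UMIs were summed over cells of a library and expressed as CPM with a pseudocount of 1. No cells were removed as doublets, and 1 alternative dropped the 5% of cells with the most UMIs. With 1 library per group there was no test, and exact Poisson and Clopper-Pearson 95% intervals cover counting error only. Gates used 1 cut per marker list in both libraries, chosen after seeing the pooled marker levels, and the limit of 20 for the core score was likewise 1 value for both. Thinning drew UMIs without replacement. Transcript lengths were compared by a running median over 501 genes, with the median of all genes added back. Alternatives changed scaling (TMM and RLE factors), cell filter, weighting, pseudocount, minimum CPM, fold limit, gate cuts and score. Tools were Python 3.11.15 with numpy 2.4.6, scipy 1.17.1, pandas 2.3.3 and matplotlib 3.10.9, and edgeR 4.0.16 in R 4.3.3, used for scaling factors only.

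Text naming covered all 34 members, pathway genes past the size rule and the up to 3 per role of highest mean CPM, and the 10 unlisted genes leading in high macrophage-gated cells at 50 CPM or more by the lower ratio of the 2 libraries. The members and lists were chosen with earlier results of these data known. Leaving out barcodes found in both libraries was added after seeing the data. Some genes of the lists are not reported here.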

Additional observations from a re-analysis of the deposited data

Results flagged for a closer look

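Barcodes that failed the cell filter entered none of the comparisons, and 5 members had a level there with THP whose interval lay wholly above that with vehicle. This was 5 of the 23 members at 10 CPM or more there, with 0 the other way, beside 9.7% of 8267 genes with the THP interval above and 7.32% with it below. There were 1070 such barcodes with 2304186 UMIs for THP and 606 with 1429915 UMIs for vehicle. In them Cxcl10 had 72.9 CPM (62.3 to 84.8) against 2.10 CPM (0.433 to 6.13), close to its level in the kept THP cells and below that in the kept vehicle cells, where the vehicle value rested on 3 UMIs. Isg15 had 70.7 CPM (60.3 to 82.5) against 24.5 CPM (17.05 to 34.04), and Ifit1 21.3 CPM (15.7 to 28.1) against 4.90 CPM (1.97 to 10.1). Bst2 had 226 CPM (207 to 246) against 131 CPM (113 to 151). Parp14, whose ratio in kept cells was below 0, had 97.2 CPM (84.9 to 111) against 64.3 CPM (51.9 to 78.9). Of these barcodes, 36 and 7 had a core score of 20 or more. The intervals cover counting error only, and the cause was not tested.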

How the results depend on the processing

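No paired analysis was possible because there was 1 library per group. Over all kept cells, 3 members were higher by 2-fold with TMM and with RLE factors, and at a 1.5-fold limit 5 were higher and 2 lower. The members' median ratio was 0.32 with TMM, 0.32 with RLE and 0.53 at a minimum of 50 CPM. It turned negative at -0.076 with the same mix of gates and at -0.033 with no minimum. Of these alternatives the median of all genes is given for TMM only, so the other medians cannot be set against genes in general. Without the high cells, 3 members were higher with TMM and with RLE, 0 at a minimum of 50 CPM, and at 1.5-fold 5 were higher and 1 lower. The shares of all genes without the high cells are given for the main setting only (0.912% and 2.92%). The counts under these other settings therefore cannot be set against genes in general. At 1.5-fold, 4 of 70 pathway genes were higher and 4 lower, beside 2.33% and 17.3% of all genes. Summed over the 7 gates, 10 calls of members were higher and 3 lower (1.18% and 4.85% of gene calls), and 7 of the 10 were Cxcl10. With gate cuts divided by 2 there were 23 and 5 (1.65% and 7.05%), and at 1.5-fold 22 and 28 (2.79% and 21.5%). With the cuts divided by 2, the monocyte gate gave 9 of the 23 and held 156 THP cells, under the 200 asked for. The antigen-presenting gate, then with 288 and 229 cells, gave 6. Without the 5% of cells with the most UMIs there were 8 and 3 (1.18% and 4.92%). The share of high cells was 0.693% (THP) and 0.583% (vehicle) with the score limit multiplied by 2, 4.03% and 2.75% with it divided by 2, 1.33% and 1.05% after thinning, and 0.800% and 0.610% with all members in the score, so THP was the higher in each. Of single members, 17 of 34 kept the sign of their ratio under every alternative run, 9 above and 8 below 0, and 17 did not. The cause was not tested, except that a lower fold limit, a changed minimum or a moved score limit changes by construction which genes or cells count. The spread between cultures was not measured, and depth limits mainly the neutrophil-only gate and the interferon genes, where values rest on few UMIs.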
